A study of Mus musculus with 2 samples.

Results

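The 10 genes described here encode the mouse T cell receptor and its co-receptors. They are the constant regions Trac, Trbc1, Trbc2 and Trdc, the CD3 chains Cd3d, Cd3e and Cd3g, and the co-receptor chains Cd4, Cd8a and Cd8b1. They were taken by symbol from the 31053 genes of both deposited count matrices, and all 10 had a row in each. The nuclei came from inguinal white adipose tissue (iWAT) of male mice on the C57BL/6 background that were fed a Western diet and carried loxP-flanked alleles (fl/fl) of the long noncoding RNA Lexis. The mice labelled KO also carried Cre under the promoter of Adiponectin, a gene active in adipocytes, so that the deletion was aimed at adipocytes and not at T cells. The mice labelled WT carried no Cre. Each group was 1 single-nucleus library, made from tissue pooled over 3 mice with the lymph node removed according to the protocol. The file names and the sample labels give opposite genotypes for both libraries. Lexis has no row under its symbol, so that gene could not check the labels. Adrb3 and Acsl1, genes known from thermogenic adipocytes, were among the leading genes of an adipocyte-like cluster with 421 nuclei labelled WT and 5 labelled KO. Whether the labels were exchanged was not tested. The libraries are named by their labels only (WT-labelled and KO-labelled). With 1 library per group an effect of genotype cannot be told apart from a difference between libraries.

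An alpha beta T cell binds antigen through a receptor made of an alpha and a beta chain, and a gamma delta T cell through a gamma and a delta chain. Each chain joins a rearranged variable region to a constant region, and the beta locus holds a pair of near-identical constant regions of which a functional chain uses 1. The chains have no signalling tail of their own and depend on the CD3 gamma, delta and epsilon chains and on the zeta chain (Cd247), whose phosphorylation by the kinase Lck starts the signal. CD4 binds MHC class II and marks helper and regulatory T cells, while CD8, a dimer of alpha and beta chains, binds MHC class I and marks cytotoxic T cells. T cells are a regular part of the immune population of adipose tissue. CD4 is also found on some macrophages, and the CD8 alpha chain on a subset of dendritic cells.

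In the RefSeq annotation of GRCm38.p6 the members lie on chromosomes 6, 9 and 14. The CD3 genes form 1 cluster of 40092 bases, with Cd3g at chr9:44969572-44980431, Cd3d at chr9:44981769-44987052 and Cd3e at chr9:44998735-45009663, and the annotated start sites of Cd3g and Cd3d lie 1355 bases apart. Trbc1 (chr6:41538219-41539665) ends 7065 bases before Trbc2 (chr6:41546730-41548181), and Trdc (chr14:54142851-54146108) ends 74413 bases before Trac (chr14:54220521-54224198). Cd8b1 (chr6:71322788-71337492) and Cd8a (chr6:71373427-71379171) are 35935 bases apart, and Cd4 lies at chr6:124864693-124888247. A promoter window from RefSeq, 250 bases before to 50 bases after the start site, was held for 4 members, Cd3d, Cd3e, Cd3g and Cd8a. The windows of the CD3 genes are shown because these neighbouring genes encode parts of 1 complex and all had their highest level in the same class of nuclei. Capitals mark the letters CAGGTG, an E box bound by E proteins, and AGGAAG, a core bound by ETS factors, read on both strands, and no match overlapped another. The window of Cd3d is chr9:44981536-44981835 on the plus strand, that of Cd3e chr9:45009562-45009861 on the minus strand and that of Cd3g chr9:44980382-44980681 on the minus strand.
Cd3d: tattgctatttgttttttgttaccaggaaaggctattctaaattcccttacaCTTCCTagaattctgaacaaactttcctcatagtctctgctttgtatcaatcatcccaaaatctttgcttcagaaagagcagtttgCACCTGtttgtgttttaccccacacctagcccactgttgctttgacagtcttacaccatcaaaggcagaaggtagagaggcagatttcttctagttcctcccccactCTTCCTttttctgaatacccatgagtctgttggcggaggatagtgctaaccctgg
Cd3e: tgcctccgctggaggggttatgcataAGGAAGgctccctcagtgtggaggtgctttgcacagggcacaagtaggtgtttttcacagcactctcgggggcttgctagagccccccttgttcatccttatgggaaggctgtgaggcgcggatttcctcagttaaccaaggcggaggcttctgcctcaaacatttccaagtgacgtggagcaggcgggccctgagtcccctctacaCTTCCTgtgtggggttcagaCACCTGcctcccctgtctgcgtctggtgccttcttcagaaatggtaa
Cd3g: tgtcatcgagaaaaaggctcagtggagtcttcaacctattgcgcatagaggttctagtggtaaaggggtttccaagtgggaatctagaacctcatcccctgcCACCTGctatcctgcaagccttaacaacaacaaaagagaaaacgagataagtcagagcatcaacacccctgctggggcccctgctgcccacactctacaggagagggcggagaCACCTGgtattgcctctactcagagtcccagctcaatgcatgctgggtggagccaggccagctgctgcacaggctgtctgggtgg
CAGGTG was found in all 3 CD3 windows and in 20.2% of all 32851 windows of that length. AGGAAG was found in the windows of Cd3d and Cd3e and in 35.4% of all windows. Neither TGTGGT, a core bound by RUNX factors (16.8% of all windows), nor the letters TATAAA of the classical core promoter element (13.6%) were found in the windows of the 4 members, and the Cd8a window held none of the 4 motifs.

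Barcodes in which 500 or more genes were detected, and whose mitochondrial UMIs did not pass 5%, were clustered with the members and all T cell receptor segments left out of the clustering, so that the class of a nucleus did not rest on the genes described here. In the WT-labelled library 748 of 3503 kept nuclei were T/NK-like (21.4%, exact 95% interval 20.01 to 22.8), and in the KO-labelled library 68 of 2850 were (2.39%, 1.86 to 3.02). B-like nuclei numbered 1260 (35.97%) and 3 (0.105%), and a cluster led by Ccl21a, Ccl19 and Cxcl13, which passed 5 of 6 lymphoid stroma markers and was given no name, numbered 148 and 0. Their part in the T/NK-like values was not tested. With at least 1000 genes asked for and the nuclei clustered anew, the T/NK-like shares were 6.69% (67 nuclei) and 2.02% (50 nuclei), and with at most 1% mitochondrial UMIs they were 18.5% and 0.618% (6 nuclei). The class joins T cells and natural killer (NK) cells. All 16 T cell markers and all 8 NK markers were detected in it in both libraries. The 2 clusters of the class were split by library. Cluster 2, which passed all 16 T cell markers and 1 NK marker, held 747 of the T/NK-like nuclei labelled WT and 12 of those labelled KO. Cluster 14 was led by the NK genes Klra8, Klra4, Gzma and Ncr1, passed all 16 T cell and all 8 NK markers, and held 1 nucleus labelled WT and 56 labelled KO. A UMI of at least 2 NK markers was seen in 3.34% of T/NK-like nuclei labelled WT (25 of 748) and 35.3% of those labelled KO (24 of 68, interval 24.1 to 47.8). Summed B cell markers in the class stood at 2195 UMIs per 1000000 UMIs of the class (CPM) in the WT-labelled library, where 0 of the 12 markers were at 0, and at 242 CPM in the KO-labelled library, where 7 of 12 were at 0. Depth differed too, since the median nucleus held 1195 UMIs from 758 genes in the first and 3877 UMIs from 1941 genes in the second. T/NK-like nuclei had a median of 1099 and 2185 UMIs. Of the barcode sequences, 12 occurred in both deposited matrices and 10 of these were kept in both. All intervals are exact 95% intervals and cover counting error only.

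Among classes with at least 10 nuclei in a library, every member had its highest level in T/NK-like nuclei, in both libraries, and each time it exceeded the next class beyond counting error. Smaller classes were not placed in the order. They were the 2 myeloid-like nuclei labelled WT, with 1 UMI each of Trbc1, Cd3d and Cd8a, and the 3 B-like, 3 dividing and 9 dendritic-like nuclei labelled KO, with 1 UMI of Trbc1 among the dividing ones. Among the antigen-binding chains of the WT-labelled library, Trac had 273 UMIs in T/NK-like nuclei (271 CPM, interval 239.9 to 305), Trbc1 had 946 UMIs (939 CPM, 880.4 to 1001), and Trbc2 had 842 UMIs (836 CPM, 780.5 to 895). Trdc, the constant region of the delta chain, had 80 UMIs (79.4 CPM, 63.0 to 98.9) and was seen in 34 of the 748 nuclei. The counted UMIs are not corrected for gene length, so that these levels order cell classes for a gene and not genes against each other. Each of the 4 chains thus stood above its next class, which was the cluster of dividing nuclei for Trac (80.8 CPM, ratio 3.35, interval 2.00 to 6.07), Trbc1 (ratio 3.96, 2.93 to 5.49) and Trbc2 (ratio 4.31, 3.09 to 6.20), and macrophage-like nuclei for Trdc (20.3 CPM, ratio 3.92, 2.17 to 7.67).

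The CD3 chains carry the signal of the bound receptor into the cell. In T/NK-like nuclei labelled WT, Cd3d had 443 UMIs (439.9 CPM, 399.9 to 483), Cd3e had 549 (545 CPM, 500.5 to 593) and Cd3g had 649 (644 CPM, 596 to 696). Dividing nuclei came next for all 3 among classes of that size, with ratios of 3.27, 3.49 and 3.86. Those 91 nuclei passed 5 of 16 T cell and 8 of 12 B cell markers, and T cells in division were not separated from B cells in it. Among the co-receptor chains, Cd8a had 385 UMIs (382 CPM, 345 to 422) and Cd8b1 had 279 (277 CPM, 246 to 312), again with dividing nuclei next (ratios 3.38 and 2.45). Cd4 had 138 UMIs in T/NK-like nuclei (137 CPM, 115 to 162), and macrophage-like nuclei followed closely with 87.4 CPM, a ratio of 1.57 (interval 1.14 to 2.18). Below the top class few neighbours in the order differed. For Trac none of the later steps in the order was beyond counting error, from dividing nuclei down to adipose stem and progenitor cell-like (ASPC-like) nuclei at 16.4 CPM. For Trbc1 the steps beyond counting error below the top were those from dividing nuclei to the unnamed cluster led by Ccl21a (1.56, 1.004 to 2.44) and from B-like to adipocyte-like nuclei (1.77, 1.34 to 2.35).

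The KO-labelled library gave the same leading class from far fewer UMIs. Its 68 T/NK-like nuclei held 7 UMIs of Trac (45.8 CPM, interval 18.4 to 94.3), 57 of Trbc1 (373 CPM, 282 to 483), 43 of Trbc2 (281 CPM, 204 to 379) and 11 of Trdc (71.9 CPM, 35.9 to 129). All 11 Trdc UMIs lay in 4 nuclei, 8 of them in a single nucleus. The CD3 chains had 10 UMIs of Cd3d (65.4 CPM), 35 of Cd3e (229 CPM) and 26 of Cd3g (170.0 CPM). Cd4 had 12 UMIs (78.5 CPM), Cd8a 20 (131 CPM) and Cd8b1 16 (105 CPM). These counts are small enough that single nuclei weigh on them. For Trbc2, 24 of the 43 UMIs lay in 4 nuclei, and for Cd8a 13 of 20.

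**Figure D1:**
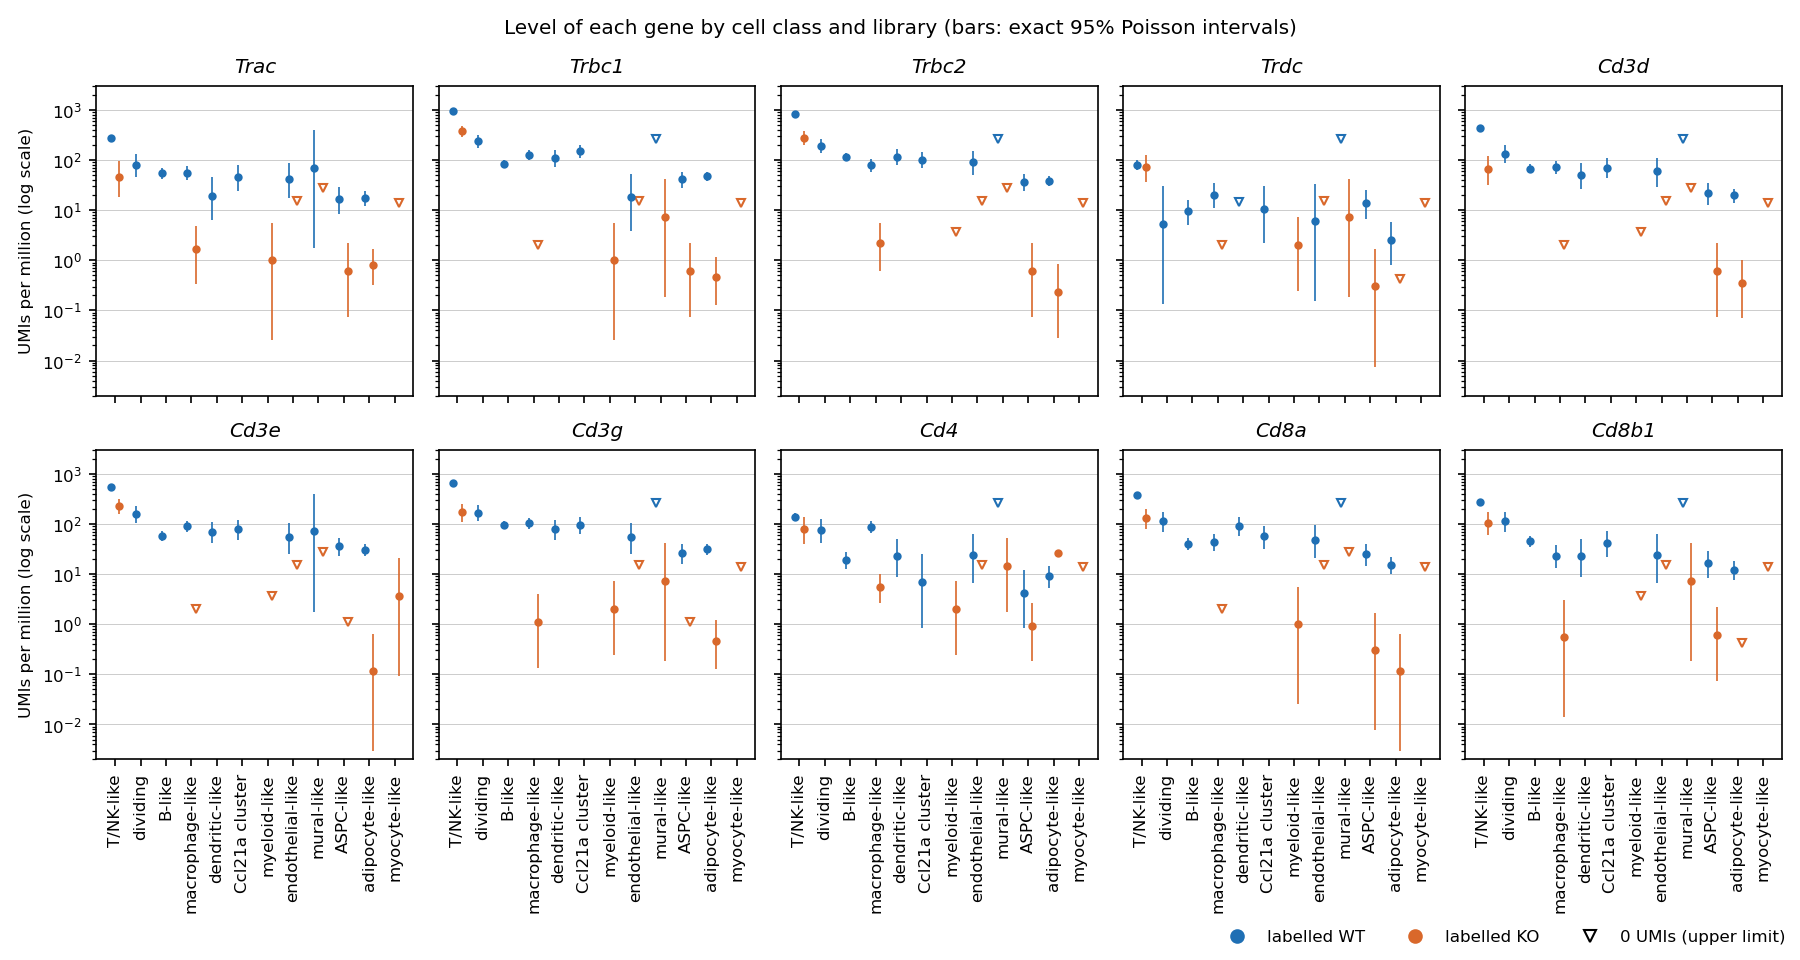
Level of each of the 10 genes in CPM (log scale) by cell class, with 1 panel per gene; blue points are the WT-labelled library, orange points the KO-labelled library, bars are exact 95% Poisson intervals, and open triangles mark the upper limit where no UMI was counted. T/NK-like nuclei are highest in every panel among classes with at least 10 nuclei, in both libraries, and in adipocyte-like nuclei blue points lie above orange ones for all genes but Cd4.

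Against all other nuclei of its library together, the T/NK-like class was higher for all 10 members by at least 2-fold in the WT-labelled library. Trdc, with 46 UMIs outside the class, passed the filter of 50 UMIs only with those inside it. The median log2 ratio of the members was 3.32, beside 0.13 over all 10969 genes with at least 50 UMIs, of which 9.62% reached a ratio of 2 and 19.7% a ratio of 0.5 or less. The ratios ran from 5.98 for Cd4 (interval 4.67 to 7.66) to 11.96 for Trbc1 (10.7 to 13.4). In the KO-labelled library 3 members (Trbc1, Trbc2 and Cd4) had the 50 UMIs needed. Trbc1 (57 of 66 UMIs) and Trbc2 (43 of 51) did so only through T/NK-like nuclei, so that no call is drawn from them. Cd4 reached a ratio of 2, as did 19.3% of 13426 genes, with 36.5% at 0.5 or less. The median log2 ratio of all 10 members was 8.42 there, against -0.15 over all genes. Trbc1 was 640.2-fold higher (interval 315 to 1471) and Cd3e, with 35 UMIs inside and 2 outside the class, 1769-fold higher (interval 455 to 15182), while Cd4 was 4.87-fold higher (2.48 to 8.66). For 9 of the 10 members the level outside T/NK-like nuclei was far lower in the KO-labelled library, and Cd4 was the exception. The larger ratios of those 9 members there rest on few outside UMIs, from 2 for Cd3e to 13 for Trac. No call is drawn from them, and the share of all genes with such a contrast between libraries was not computed.

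The UMIs of Trac, Trbc1, Trbc2, Cd3d, Cd3e and Cd3g were then added as a receptor sum. It came to 5695 UMIs in the WT-labelled library, of which 65.0% lay in T/NK-like nuclei (3702 UMIs, interval 63.8 to 66.2), and to 224 UMIs in the KO-labelled library, of which 79.5% did (178 UMIs, interval 73.6 to 84.6). With at least 1000 genes per nucleus these shares were 29.9% (28.0 to 31.7) and 78.6%. A UMI of the sum was seen in 704 of 748 and in 52 of 68 T/NK-like nuclei. Outside the class, the WT-labelled library had 72.3 UMIs of the sum per 100 nuclei (354 CPM) and the KO-labelled library 1.65 (2.98 CPM), although its nuclei were deeper. In the WT-labelled library the outside level was found in every large class. It was 51.8 UMIs per 100 B-like nuclei, 101.2 per 100 macrophage-like nuclei, 109 per 100 dendritic-like nuclei, 44.4 per 100 ASPC-like nuclei and 87.2 per 100 adipocyte-like nuclei, cell types that do not make a T cell receptor. With every nucleus thinned to 500 UMIs, the sum was seen in 80.2% of T/NK-like, 17.5% of B-like and 7.84% of adipocyte-like nuclei labelled WT, where the unthinned shares were 94.1%, 31.5% and 37.3% at median depths of 1099, 961 and 3686 UMIs. In the KO-labelled library the thinned shares were 47.1% of T/NK-like nuclei and 0.108% of all others, and the unthinned shares 76.5% and 1.51%. Single nuclei outside the class held up to 32 UMIs of the sum (macrophage-like), 19 (adipocyte-like) and 18 (dividing). Free RNA, doublets that were not removed and T nuclei placed in another class cannot be told apart here, so that a share outside T/NK-like nuclei is not read as expression by those cells.

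**Figure D2:**
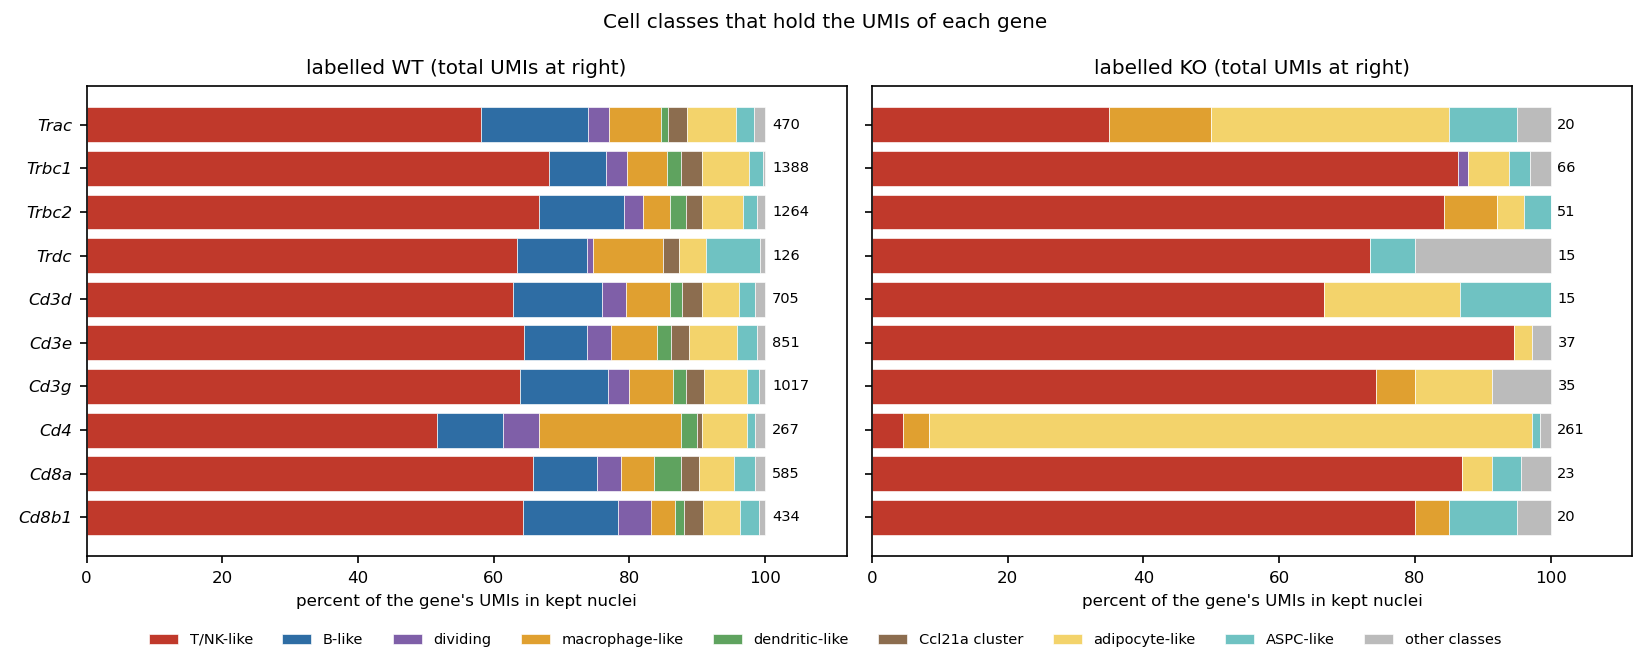
Cell class in which the UMIs of each gene lie, as percent of all its UMIs in kept nuclei, with the WT-labelled library on the left and the KO-labelled library on the right; the number beside each bar is the total of UMIs. T/NK-like nuclei hold between 51.7% (Cd4) and 68.2% (Trbc1) in the WT-labelled library, and adipocyte-like nuclei hold nearly all Cd4 in the KO-labelled library (232 of 261 UMIs).

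The mix of the members was compared between classes. The UMIs of each member per UMI of the receptor sum were divided by the same quantity in T/NK-like nuclei, for 8 classes of the WT-labelled library. Of the 80 values, 71 had an interval that included 1, 5 lay above and 4 below. These intervals take the receptor sum of each class as fixed and leave out its own counting error, so that bounds close to 1 are uncertain. Trac was above in B-like nuclei (1.54, interval 1.17 to 1.99) and Trbc1 was below there (0.695, 0.568 to 0.844). Trbc1 was also low in endothelial-like nuclei (0.222, from 3 UMIs). Trdc was above in ASPC-like nuclei (3.56), where 7 of its 10 UMIs came from 1 nucleus. The value of Trbc1 in endothelial-like nuclei lay far from 1, on those 3 UMIs.

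The other 5 departures were of co-receptors or of Trbc2. Cd4 in macrophage-like nuclei was 4.45 times (interval 3.20 to 6.11) the amount that the receptor sum there would carry, with 56 UMIs spread over 42 of 334 nuclei and at most 4 in 1 nucleus. In the same nuclei Cd8b1 was at 0.589 (0.325 to 0.988) and Trbc2 at 0.650 (0.479 to 0.866). Cd4 was also above in dividing nuclei (2.09, 1.11 to 3.62). Cd8a was above in dendritic-like nuclei (1.94, 1.22 to 2.95), with 23 UMIs in 11 of 105 nuclei, 13 of them in 4 nuclei, whereas Cd8b1, its partner chain in T cells, was at 0.698 (0.254 to 1.54) there. In the KO-labelled library macrophage-like nuclei had 10 UMIs of Cd4 (5.49 CPM) beside 9 UMIs of the receptor sum in 567 nuclei.

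**Figure D3:**
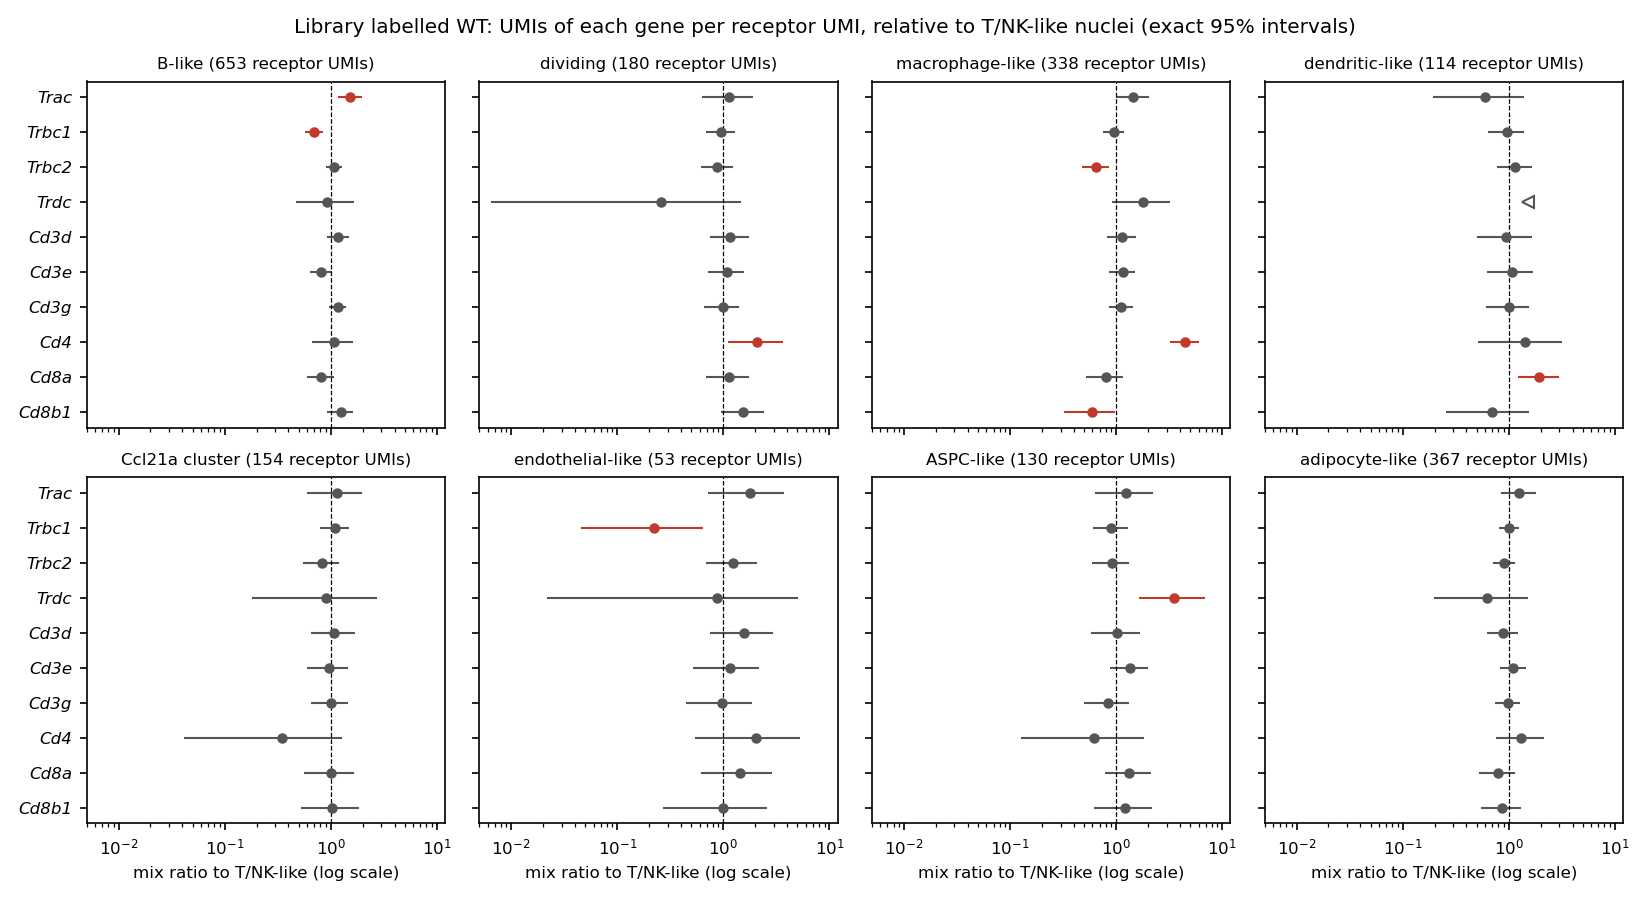
UMIs of each gene per UMI of the receptor sum in 8 classes of the WT-labelled library, divided by the same quantity in T/NK-like nuclei (log scale, 1 is the mix of T/NK-like nuclei); bars are exact 95% intervals, red points have an interval that leaves out 1, and the open triangle is an upper limit. Most points lie around 1, and the red points farthest from it are Cd4 in macrophage-like nuclei at 4.45 and Trbc1 in endothelial-like nuclei at 0.222. The intervals take the receptor sum as fixed.

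Cd4 in the KO-labelled library lay mostly in adipocyte-like nuclei, which held 232 of its 261 UMIs (26.9 CPM, interval 23.5 to 30.5). These UMIs were found in 32 of 892 nuclei and were very unevenly spread. The 10 nuclei with at least 5 had 53, 29, 28, 25, 18, 11, 7, 7, 6 and 5. Together these 10 nuclei held 189 Cd4 UMIs, 0 UMIs of the receptor sum, 0 UMIs of Cd8a or Cd8b1 and 9 UMIs summed over the T cell markers, which is 61.6 CPM against 33.9 CPM in the adipocyte-like nuclei without Cd4. Their adipocyte markers stood at 11985 CPM, near the 13062 CPM of the 860 adipocyte-like nuclei without Cd4, and their macrophage markers at 431 CPM against 326 CPM. Median depth was 9393 UMIs in the 10 nuclei and 7801 in those without Cd4. Without the 4 nuclei with most Cd4 the level fell to 11.3 CPM (9.18 to 13.8). The 421 adipocyte-like nuclei labelled WT had 18 Cd4 UMIs (9.08 CPM), never more than 2 in a nucleus. Apart from Cd4, adipocyte-like nuclei labelled KO had 21 UMIs of the receptor sum, 0 of Trdc and 1 of Cd8a.

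Over all kept nuclei the median log2 ratio of the members (KO-labelled over WT-labelled) was -5.77, beside -0.05 over 14496 genes, and the receptor sum stood at 858 CPM against 14.4 CPM. A sum over a whole library cannot tell fewer T nuclei from less RNA per nucleus, so the members were next compared inside T/NK-like nuclei. There the receptor sum was 3676 CPM in the WT-labelled library (interval 3558 to 3796) and 1164 CPM in the KO-labelled library (999 to 1348). The latter was 631 CPM when each library was clustered by itself. Per 100 T/NK-like nuclei the receptor sum was 494.9 UMIs labelled WT and 261.8 labelled KO, at median depths of 1099 and 2185 UMIs. In CPM, 8 of the 10 members were lower in the KO-labelled library by 2-fold or more, each beyond counting error, and 0 were higher. Over 4799 genes with at least 50 UMIs, 22.3% had a ratio of 0.5 or less and 15.8% a ratio of at least 2. The median log2 ratio was -1.48 for the members and -0.22 for all genes. It was -2.39 for the members with each library clustered by itself. With at most 1% mitochondrial UMIs, which left 6 nuclei labelled KO, it was -1.47. The medians of the members' interval bounds were then -4.41 and 0.18. Per 100 T/NK-like nuclei Cd3d had 59.2 UMIs labelled WT and 14.7 labelled KO. In the same order Trac had 36.5 and 10.3, and Cd3g 86.8 and 38.2. Values lay closer for Trbc1 (126.5 and 83.8), Trbc2 (112.6 and 63.2), Cd3e (73.4 and 51.5), Cd8a (51.5 and 29.4) and Cd8b1 (37.3 and 23.5). Cd4 stood at 18.45 and 17.65, and Trdc at 10.7 and 16.2.

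Cd3d had the lowest ratio (0.149, interval 0.0708 to 0.276), followed by Trac (0.169, 0.0673 to 0.353) and Cd3g (0.264, 0.171 to 0.390). Trbc2 (0.336), Cd8a (0.342), Cd8b1 (0.378), Trbc1 (0.397) and Cd3e (0.420) were lower too. For Cd4 (0.573, 0.289 to 1.03) and Trdc (0.905, 0.435 to 1.71) the interval included 1, so that a difference was not detectable at these counts. The 24 nuclei labelled KO with at least 2 NK markers held 28 UMIs of Trbc1 and 9 of Trbc2 but 1 each of Trac, Cd3d, Cd3e and Cd3g, and 0 of Cd4, Cd8a and Cd8b1.

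When nuclei with at least 2 NK markers were left out, 44 nuclei labelled KO and 723 labelled WT remained. Of the 10 members, 7 were then lower in the KO-labelled library beyond counting error and 5 had a ratio of 0.5 or less, beside 23.8% of 4399 genes, with 15.2% at 2 or more. The median log2 ratio was -1.0 for the members and -0.23 for all genes. Cd3d (0.215, 0.0976 to 0.412), Trac (0.235, 0.0856 to 0.519), Trbc1 (0.330, 0.219 to 0.476), Cd3g (0.408) and Trbc2 (0.439) stayed at 0.5 or less. Cd8a (0.568, 0.343 to 0.891) and Cd3e (0.658, 0.451 to 0.931) were lower by less than 2-fold. Cd8b1 (0.620, 0.3495 to 1.03), Cd4 (0.914, 0.461 to 1.65) and Trdc (1.24, 0.544 to 2.47) had intervals that included 1. Subcluster 1 of the T/NK-like nuclei (described below) had the most B cell markers per nucleus. Without it the median log2 ratio of the members in the full class was -1.60. The part that the NK and B cell markers have in these ratios was not tested beyond leaving out such nuclei.

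**Figure D4:**
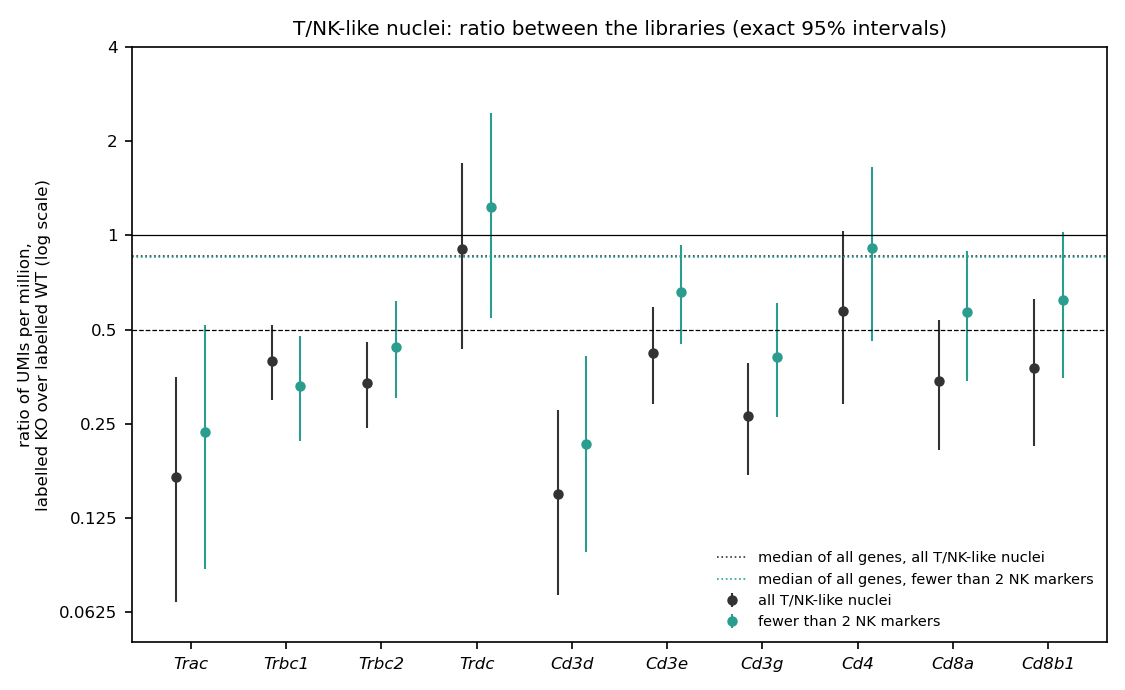
Ratio of CPM in the KO-labelled library over the WT-labelled library for each gene (log scale), in all T/NK-like nuclei and in those with fewer than 2 NK markers; bars are exact 95% intervals for counting error, the dotted lines are the medians over all genes tested and the dashed line is a ratio of 0.5. Points lie below the median of all genes in both sets except Trdc, and Cd4 in the smaller set.

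Genes with long introns had higher ratios between the libraries in T/NK-like nuclei. The members with a known intronic length had from 618 (Trbc1) to 19498 (Cd4) intronic bases. Over 10 groups of genes by intronic length the median log2 ratio rose from -0.80 (up to 2700 intronic bases) to 1.34 in the longest group. Intronic lengths were held for 98.1% of the 4799 genes and for 9 members, all but Trdc. Relative to genes of like intronic length all 9 were still on the lower side, with a median of -0.77 on the log2 scale, from -0.38 for Cd4 to -1.76 for Trac and -1.99 for Cd3d. Of the 9, 3 (Trac, Cd3d and Cd3g) were at 0.5 or less on that relative scale, beside 13% of 4709 genes, and 0 were at 2 or more, beside 14.4%.

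Genes that act with the receptor were described in the same T/NK-like nuclei. Of 22 genes of T cell receptor signalling, 20 had at least 50 UMIs, 8 had a ratio of at least 2 (library labelled KO over labelled WT) and 3 of 0.5 or less, with a median log2 ratio of 0.60, beside 15.8% and 22.3% of all 4799 genes. Skap1, an adaptor for integrin activation, had a ratio of 6.21 (interval 5.44 to 7.10), or 2.64 on the log2 scale and 1.29 relative to genes of like intronic length. Prkcq, the kinase PKC theta, had a ratio of 2.95 (2.48 to 3.49; relative log2 value 1.07), and Cd247, the zeta chain of the receptor complex, 2.58 (1.98 to 3.33; relative log2 value 0.88). The adaptor Lat was at 0.422 (0.254 to 0.663), Plcg1, the phospholipase recruited to it, at 0.439, and Lck, the kinase bound by the co-receptors, at 0.540 (0.428 to 0.674). Cd247 therefore went the opposite way from the 3 CD3 chains with which its protein assembles. With fewer than 2 NK markers its ratio was 2.96 (2.18 to 3.97). Relative to genes of like intronic length the list's median was 0.32, with 6 genes at 2 or more and 1 at 0.5 or less, beside 14.4% and 13% of all genes.

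Genes of naive and recirculating T cells were found on both sides. Of 10 such genes 5 had a ratio of 0.5 or less and 2 of at least 2, with a median log2 ratio of -0.88, beside the same 22.3% and 15.8% of all genes. Relative to genes of like intronic length 2 were at 0.5 or less and 2 at 2 or more, with a median of -0.34. In the full class the counts of the other lists stand beside the same 22.3% and 15.8% of all genes. List counts relative to genes of like intronic length stand beside 14.4% at 2 or more and 13% at 0.5 or less. Those with fewer than 2 NK markers stand beside 15.2% at 2 or more and 23.8% at 0.5 or less. Ccr7, the receptor that guides T cells into lymph nodes, was at 0.305 (0.144 to 0.572), and S1pr1, which guides them out, at 0.375. The genes at or above 2 were the transcription factor genes Bach2 (6.26, relative log2 value 1.31) and Lef1 (2.96, relative log2 value 1.08). Of 12 genes of CD8 lineage 8 were measured and 4 had a ratio of at least 2, among them Ccl5 (3.89), Nkg7 (2.31) and Tbx21 (17.9), which NK cells express as well. With fewer than 2 NK markers 1 of 6 did, and Nkg7 was at 0.202 (0.0544 to 0.524). Relative to genes of like intronic length 4 of 7 in the full class were at 2 or more and 0 at 0.5 or less, with a median of 1.74. Of 12 genes of CD4 lineage 7 were measured and 0 reached either bound in the full class. Relative to genes of like intronic length 2 were at 2 or more and 1 at 0.5 or less, and with fewer than 2 NK markers 2 were at 2 or more. Of 12 gamma delta genes 5 were measured, with 2 at 0.5 or less, Tcrg-C1 (0.206) and Maf (0.431), and 0 at 2 or more. Relative to genes of like intronic length 1 was at 0.5 or less and 2 at 2 or more, and with fewer than 2 NK markers 2 were on each side. Of the costimulation list 7 of 10 genes were measured, with 2 at 0.5 or less and 0 at 2 or more, and relative to genes of like intronic length 0 and 1. Of the effector and resident list 8 of 10 were measured, with 3 at 2 or more and 0 at 0.5 or less. Relative to genes of like intronic length the counts were 3 and 0, with a median of 0.60. Of the 7 genes of dividing cells none had enough UMIs.

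T nuclei were then split by their co-receptor. In the WT-labelled library 90 of the 748 T/NK-like nuclei had a UMI of Cd4 and none of Cd8a or Cd8b1, 290 had a UMI of Cd8a or Cd8b1 and none of Cd4, 22 had both and 346 had neither. The CD4 share of nuclei with 1 co-receptor was thus 23.7% (interval 19.5 to 28.3), and 8.82% (1.86 to 23.7, 34 nuclei) when at least 1000 genes were asked for. In the KO-labelled library the counts were 7, 11, 1 and 49, a share of 38.9% (17.3 to 64.3), and 41.2% (18.4 to 67.1, 17 nuclei) with at least 1000 genes. The intervals of the libraries overlap under both filters. At 500 UMIs per nucleus the shares were 20.8% (50 of 240) and 0 of 6, which allows up to 45.9%, so that the order of the libraries changed with the depth at which nuclei were compared. B-like nuclei labelled WT gave 20.4% (22 of 108), adipocyte-like nuclei 23.1% (9 of 39) and dendritic-like nuclei 21.05% (4 of 19), near the T/NK-like share. ASPC-like nuclei gave 8.33% (2 of 24, interval 1.03 to 27) and macrophage-like nuclei 66.7% (38 of 57). A share of CD4-only nuclei counts nuclei in which a low transcript was caught, since Cd4 was seen in 14.97% and Cd8a in 32.0% of T/NK-like nuclei labelled WT. When at least 2 UMIs were asked for, which Cd4 must reach with 1 gene and CD8 with 2, the share was 7.43% of 175 nuclei labelled WT and 20% of 10 labelled KO (2.52 to 55.6).

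Genes of both lineages that the split did not use differed between the nuclei labelled WT, those of the CD4 lineage not under every filter. CD4-only nuclei held 113311 UMIs and CD8-only nuclei 410574. Of 12 genes of CD4 lineage 6 had at least 20 UMIs and 3 had a ratio of at least 2 (CD4-only over CD8-only), and of 12 genes of CD8 lineage 8 had at least 20 UMIs and 6 had a ratio of 0.5 or less, beside 3.85% and 9.88% of all 5144 genes. The median log2 ratios were 1.01 and -1.58, against -0.05 over all genes. Summed over each list, CD4 lineage genes were 2.32-fold higher (interval 1.87 to 2.87) and CD8 lineage genes were at 0.421 (0.346 to 0.508). With at least 1000 genes per nucleus the first ratio was 1.18 (0.560 to 2.27), which includes 1, and the second 0.487 (0.274 to 0.811). The lists were chosen with earlier results of these data known, so that these values describe the split and are no independent test of it. Izumo1r and St8sia6, named below, belong to the CD4 lineage list. Izumo1r, the folate receptor 4 of regulatory and anergic CD4 cells, had the highest ratio among genes with at least 20 UMIs that the split did not use (15 against 7 UMIs, 7.76, interval 2.98 to 22.5), and Ikzf2, the transcription factor Helios, had 2.24 (1.49 to 3.34). Runx3, the factor that silences Cd4 in the CD8 lineage, was at 0.195 (0.102 to 0.339), with 115 CPM in CD4-only and 589 CPM in CD8-only nuclei. Itgae, the integrin CD103, was at 0.154 (0.0181 to 0.589). The lowest ratios among these genes were those of the chemokine receptor gene Cxcr6 (0.0503), Ctsw (0.0740) and Nkg7 (0.0745), genes of cytotoxic cells, and Klra7 (0.0788), together with Gm44175, which had 0 UMIs against 151 and was at least 13.9-fold lower when 0 is set at 3 UMIs over the group. After Izumo1r came Rgs1 (5.44), Gpatch11 (4.18), Fstl1 (4.08) and St8sia6 (3.95). Each of these highest and lowest genes had fewer than 20 UMIs in the group where it was lower. It thus passed the filter only with the group where it was higher, so that no call is drawn from the ranking. The costimulatory receptor Cd28 was higher in CD4-only nuclei (2.60, 1.74 to 3.86).

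Of the 7 members that the split did not use, the median log2 ratio was 0.02. Trac was higher in CD4-only nuclei, with 503 against 256 CPM (1.97, interval 1.40 to 2.74), as was Trbc1 (1.32, 1.08 to 1.61). Cd3g was lower (0.676, 0.484 to 0.926). For Trbc2 (1.17), Cd3d (0.778), Cd3e (1.02) and Trdc (0.906) the interval included 1. The receptor genes therefore did not move together between the co-receptor classes. In signalling, Cd247 was higher in CD4-only nuclei (1.96, 1.25 to 3.01) and so was Lat (1.70, 1.18 to 2.43), while Lck was not distinguishable (1.06, 0.866 to 1.28).

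**Figure D5:**
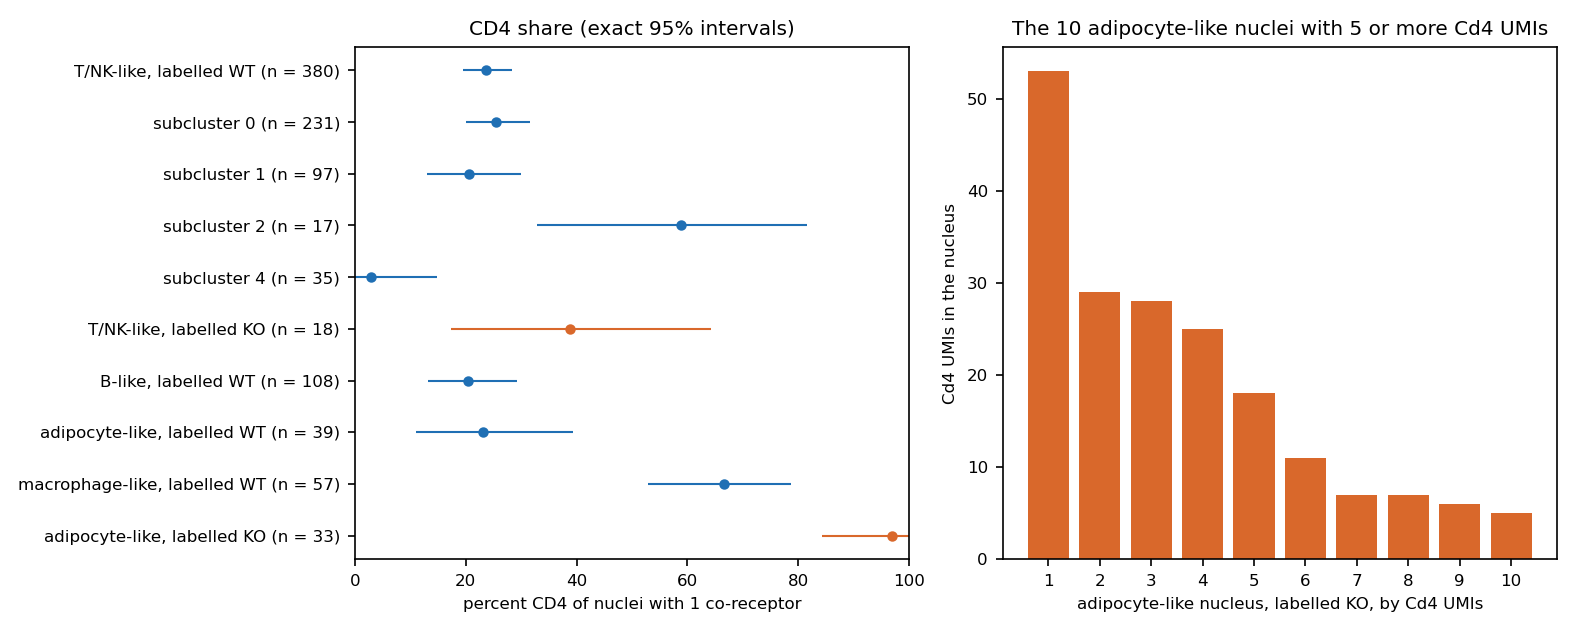
Left, percent of CD4-only nuclei among nuclei with 1 co-receptor, with exact 95% intervals and the number of such nuclei (n), for T/NK-like nuclei, their subclusters and other classes; right, Cd4 UMIs in each of the 10 adipocyte-like nuclei labelled KO that had 5 or more. T/NK-like, B-like and adipocyte-like nuclei labelled WT lie between 20.4% and 23.7%, macrophage-like nuclei at 66.7%, and the bars on the right run from 53 down to 5 UMIs.

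Within T/NK-like nuclei labelled WT the members were compared for detection in the same nucleus. Cd8b1 was seen in 45.6% of the 239 nuclei with Cd8a and in 14.3% of the others, a difference of 31.3 percentage points (interval 24.0 to 38.4), which was 14.9 points (7.34 to 23.4) at 500 UMIs per nucleus. Cd8a was seen in 15.2% of nuclei with Cd4 and in 34.9% of the others, a difference of -19.7 points (-26.9 to -10.9), and of -11.2 points (-17.4 to -0.320) at 500 UMIs. The CD8 chains thus occurred together and apart from CD4. Cd3e was seen in 54.1% of nuclei with Cd3g and in 38.1% of the others (16.0 points, 8.66 to 23.2, and 8.76 points, 1.40 to 16.6, at 500 UMIs), and in 52.0% of nuclei with Cd3d and 41.6% of the others (10.4 points, 2.80 to 17.9), a difference that was 1.92 points (-5.67 to 10.4) at 500 UMIs. Trbc2 was seen in 46.9% of nuclei with Trbc1 and 55.5% of the others (-8.63 points, -15.9 to -1.28), and the interval of this difference included 0 at 500 UMIs (-7.18, -14.2 to 0.188). The constant regions of the beta chain are near-identical in their coding part, so that reads may be lost or assigned between them, and their split is uncertain. In the 68 T/NK-like nuclei labelled KO, Cd8b1 was seen in 66.7% of nuclei with Cd8a and 5.09% of the others (61.6 points, 23.7 to 87.7), and Cd3e in 88.9% of nuclei with Cd3d and 20.3% of the others (68.6 points, 29.4 to 82.9), from 9 nuclei with Cd8a and 9 with Cd3d. Cd3e was seen less with Trbc1 there, in 13.3% of nuclei with Trbc1 and 42.1% of the others (-28.8 points, -48.4 to -5.28), and more with Trbc2, in 62.5% and 19.2% (43.3 points, 13.1 to 67.6). At 500 UMIs the intervals of these 4 differences included 0, and the difference of Cd8b1 with Cd8a was -6.06 points (-14.8 to 78.2). Cd3e with Cd3g differed by 51.4 points (21.1 to 73.6) there, and by -16.4 (-28.1 to 25.4) at 500 UMIs. The 24 nuclei labelled KO with at least 2 NK markers held 28 of the 57 Trbc1 UMIs and 1 of Cd3e. In nuclei labelled WT, Cd3e with Trbc1 differed by 5.65 points (-1.68 to 12.9), and by 8.61 (1.85 to 15.65) at 500 UMIs. Cd3e with Trbc2 differed by 10.9 (3.57 to 18.1) and 0.476 points (-5.98 to 7.32).

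T/NK-like nuclei were clustered again, with members and receptor segments again left out, into 5 subclusters. Subcluster 2 (76 nuclei, all labelled WT) was led by Tcrg-C1, a gamma chain constant region, and by Il17re, Maf and Sox13, genes known from interleukin-17-producing gamma delta T cells. It held 66 of the 80 Trdc UMIs of T/NK-like nuclei labelled WT, in 22 nuclei (491 CPM, 30.6 times the level in the others, interval 17.01 to 59.0). Cd3g was also higher there (1205 CPM, ratio 2.16, 1.80 to 2.58), whereas Cd3d (1.14, 0.861 to 1.48) and Cd3e (1.19, 0.932 to 1.50) were not distinguishable. Cd8a (0.155, 0.0705 to 0.298) and Cd8b1 (0.167, 0.0665 to 0.349) were low, and Trac (0.597) and Trbc1 (0.708) were lower too. Trbc2 (0.825, 0.659 to 1.02) was not distinguishable. Per 100 nuclei Trbc1 stood at 122.4 UMIs, against 130.0 in subcluster 0 and 121.3 in subcluster 1. Of the 17 nuclei of subcluster 2 with 1 co-receptor, 10 were CD4-only (58.8%, interval 32.9 to 81.6). Alpha beta and gamma delta nuclei were thus not separated in it. The delta variable gene Trdv4 had 40 of its 43 T/NK-like UMIs in this subcluster and the gamma variable gene Trgv2 had 34 of 46. The leading genes describe the subcluster and are no test of it.

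Co-receptor levels also differed between the other subclusters. Subcluster 4 (67 nuclei labelled WT) was led by genes such as Eomes, Gzmm and Klra7 of cytotoxic cells. It had NK markers at 445 UMIs per 100 nuclei, against 12.7, 38.8, 18.4 and 1010 in subclusters 0, 1, 2 and 3. It had more Cd8a than the others (557 CPM, ratio 1.54, 1.14 to 2.04) and less Cd4 (49.7 CPM, ratio 0.339, 0.108 to 0.811), while Cd8b1 was not distinguishable (0.927, 0.594 to 1.39), and 1 of its 35 nuclei with 1 co-receptor was CD4-only. Subcluster 0 (427 nuclei labelled WT) had a CD4 share of 25.5% and more Trbc1 (1236 CPM, ratio 1.76, 1.55 to 2.01), Trac (1.79, 1.40 to 2.30) and Cd4 (1.93, 1.36 to 2.77) than the others, and likewise more Cd8a (1.75, 1.42 to 2.15) and Cd8b1 (1.998, 1.56 to 2.57). Per 100 nuclei, however, subcluster 0 had 52.7 UMIs of Cd8a, 40.3 of Cd8b1, 19.7 of Cd4 and 37.7 of Trac, and subcluster 1 had 53.4, 41.6, 20.8 and 37.1. Subcluster 1 (178 nuclei labelled WT) had B cell markers at 922 UMIs per 100 nuclei, against 88.8 in subcluster 0, and all CD3 and receptor chains stood lower in it, from 0.520 for Cd3g to 0.777 for Trbc2 among the 6 of the receptor sum. Its Cd3g UMIs per 100 nuclei (71.9) were also close to those of subcluster 0 (71.9). Subcluster 3 held the 68 nuclei labelled KO and no other.

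UMIs of variable genes of the receptor were few, and those of alpha and beta genes were spread over many genes. The paper names a library kit that reads transcript ends. How far it reaches the variable regions was not tested, so that these counts are not read as a measure of receptor use. In T/NK-like nuclei labelled WT 141 UMIs of alpha variable genes were counted, and 46 of the 128 such genes in the matrix had a UMI. Beta variable genes had 69 UMIs (17 of 35 genes), gamma variable genes 69 (5 of 7) and delta variable genes 52 (4 of 6). Trav7-5 led the alpha genes with 13 UMIs and Trbv2 the beta genes with 13, so that no single alpha or beta gene made up most of its locus, whereas Trgv2 (46) and Trdv4 (43) did so among gamma and delta genes. T/NK-like nuclei held 77.9% of all alpha variable UMIs of that library. In the KO-labelled library the counts were 18 alpha, 4 beta, 6 gamma and 13 delta UMIs, and 11 of the delta UMIs were Trdv4.

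The genes most like the receptor sum over the 18 class-by-library points, by Pearson's r of log2(CPM + 1) among 14491 genes, were Sf3b3 (0.932), Cd8a (0.918), Tbc1d10c (0.918), Faah (0.917) and Lck (0.915). The points share their library, its depth and its background, so that this order is a description only. Sf3b3, which encodes a splicing factor subunit, had 297 CPM in T/NK-like nuclei labelled WT and 183 CPM in those labelled KO, and Lck had 1029 and 556 CPM.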

How the data were processed

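Single-nucleus RNA was measured in 1 library per group. The authors made the deposited counts (UMIs per gene and barcode) with Cell Ranger 6.1.1 according to the file headers; mm10 and Seurat 4 are named in the submitters' processing notes. Whether intronic reads were counted is not given in the sources used here. Each matrix held 5000 barcodes with 9376351 (WT) and 19655049 (KO) UMIs. Barcodes needed 500 genes and at most 5% mitochondrial UMIs (3649 and 2944 passed). Doublets were called with Scrublet in scanpy 1.11.5. The caller removed 94 KO nuclei. It marked none in WT, so there the top-scoring 4% (146 nuclei) were dropped instead.

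Nuclei of both libraries were clustered with Seurat 5.3.0 (R 4.3.3) on 2000 variable genes without the members or receptor segments, 20 components, 20 neighbours and resolution 0.5. A class was named from at least 3 markers, each in 5% of nuclei and 2-fold higher than elsewhere. UMIs were summed per class and library and divided by all UMIs of the class (CPM, without length correction). Intervals are exact at 95% (Poisson, Clopper-Pearson or conditional binomial, SciPy 1.17.1). They treat UMIs or nuclei as independent, cover counting error only, and no p-value was computed. A count of 0 was set at 3 UMIs for a fold. Ratios over all genes used genes with at least 50 UMIs (20 for the co-receptor split), and a ratio of 2 or 0.5 was the call. The genes named beside the members were the 5 largest and 5 smallest ratios of the split, the 5 genes most like the receptor sum and the members of the lists. Ratio calculations were tested on simulated counts. The members and lists were chosen with earlier results of these data known. Alternatives changed the filters, doublets, clustering, scaling and thinning. Scaling by trimmed means used edgeR 4.0.16. The value of 1 gene of the lists is not reported here.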

Additional observations from a re-analysis of the deposited data

Results flagged for a closer look

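Receptor transcripts were also counted in barcodes left out of the comparisons of the report. The 1351 WT-labelled barcodes that failed the filter held 2402 UMIs of the receptor sum (1039 CPM, interval 998 to 1081), and the 2056 such KO-labelled barcodes held 90 (29.7 CPM, 23.9 to 36.5). Among removed doublets the sum had 467 UMIs in 146 WT-labelled nuclei (1087 CPM, 991 to 1191) and 39 UMIs in 94 KO-labelled nuclei (38.6 CPM, 27.4 to 52.7). All 4 counts lie above the 3 UMIs that a count of 0 allows.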

How the results depend on the processing

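No paired analysis was possible because each group is 1 library. Of 115 alternative values 84 stayed within the interval of the reported value, 31 moved and 0 reversed, and the cause of a move was not tested. Only ratios could be labelled reversed, since a share or a CPM level has no value of no difference. The order of the libraries in the CD4 share changed at 500 and 1000 UMIs per nucleus, which was counted as a move. With at least 1000 genes per nucleus the WT-labelled T/NK share was 6.69%, the share of receptor UMIs inside the class 29.9%, the receptor sum 4121 CPM, the CD4 share 8.82% and the summed CD4 lineage ratio 1.18 (interval 0.560 to 2.27, 67 T nuclei). With at most 1% mitochondrial UMIs the WT-labelled values were 18.5%, 66.8% and 3378 CPM, and the KO-labelled T/NK share was 0.618% (6 nuclei) with 59.5% of receptor UMIs inside and Cd4 in adipocyte-like nuclei at 22.8 CPM. With doublets kept the share of receptor UMIs inside was 60.6% (WT) and 68.4% (KO), and the KO-labelled T/NK share was 3.57% at 804 CPM. Clustering on all genes gave 66.3% of WT-labelled receptor UMIs inside. Clustering each library by itself gave a KO-labelled share of 3.44%, 631 CPM and a median log2 ratio of the members of -2.39. Assigning the T class per nucleus gave 67.6% inside and 3377 CPM (WT). Leaving mitochondrial genes and Malat1 out of the total gave 4219.6 CPM (WT). Relative to genes of like intronic length the median log2 ratio was -0.77. The KO-labelled CD4 share was 0% at 500 and 16.7% at 1000 UMIs per nucleus, and the WT-labelled share was 7.43% when 2 UMIs were needed. All alternatives of the lineage ratios and of Cd4 in adipocyte-like or macrophage-like nuclei were chosen after seeing the data. So were those that follow. Without nuclei with at least 2 NK markers 63.3% (WT) and 61.2% (KO) of receptor UMIs were inside, and the KO-labelled sum was 1494 CPM. Without subcluster 1, which has B cell genes, the WT-labelled sum was 4147.5 CPM. Without the 4 nuclei with most Cd4 its KO-labelled adipocyte level was 11.3 CPM. The summed CD8 lineage ratio moved under none of 9 alternatives. The number of T/NK-like nuclei (68) limits the precision of the KO-labelled values.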
